A study of Caenorhabditis elegans with 2 samples.

Results

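The DREAM repressor complex of Caenorhabditis elegans is described here through its 8 protein-coding genes lin-35, efl-1, dpl-1, lin-9, lin-37, lin-52, lin-53 and lin-54, out of 19973 protein-coding genes on the nuclear chromosomes. Chromatin immunoprecipitation followed by sequencing (ChIP-seq) of ZNF-207, a zinc finger protein encoded by B0035.1 (also named znf-207), was examined at these genes. The 8 were chosen by name once the promoter peaks of these lists had been seen, so their peaks, signals and ranks are given as a description and were not tested. The animals were whole hermaphrodites of the transgenic strain xtl1186, in which B0035.1 carries GFP and FLAG at its C-terminus, taken as young adults 50 hours after synchronization as starved L1 larvae. Immunoprecipitation was with an anti-GFP antibody, and the data form 1 group of 2 biological replicates. No untagged or input sample was analysed here, and in whole animals the germ line and all somatic tissues contribute to each peak.

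Peak lists in the ce11 build were used, and each entry is a peak with a summit, the point marked in the list as its highest. The list of replicate 1 held 30000 peaks, that of replicate 2 held 25036, and the pooled list, made from both replicates together, held 30000. The thresholded list held the 750 strongest peaks of the pooled list, those kept by the irreproducible discovery rate procedure. The signal of a peak is the authors' value on a scale set within its list, so replicates are compared by rank (1 is the strongest) and by the ratio of a signal to the median of its own list. The lists hold no read counts, so sequencing depth is unknown.

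DREAM joins a retinoblastoma-like pocket protein, an E2F and DP pair of transcription factors and a core called MuvB, and it keeps genes of the cell cycle silent in cells that do not divide. In C. elegans the same genes belong to the class B synthetic multivulva (synMuv B) genes, which restrain vulval cell fates and keep germline genes silent in the soma. LIN-35 is the pocket protein, EFL-1 and DPL-1 are the E2F and DP subunits, and LIN-9, LIN-37, LIN-52, LIN-53 and LIN-54 form the MuvB core.

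The bases at the summits of 4 of the genes are shown because they mark the extremes of what was seen near the gene starts. They are a strong summit upstream of lin-9 alone, a strong summit between lin-54 and rpl-12, and a summit inside the coding start of lin-52. The last, at dpl-1, is the weakest when each gene is taken at its strongest pooled summit near the start. Each stretch covers up to 50 bp on either side of the strongest pooled summit near the gene start. It was cut where an untranslated or neighbouring exon begins, and is printed 5′ to 3′ on the strand of the gene. Capitals mark TTTGAA, or TTCAAA where it lies on the other strand, a form of the cell cycle homology region (CHR) element that LIN-54 binds. The sequences were read from the RefSeq copy of the WBcel235 genome, which is ce11.
lin-9 (chrIII:8904218-8904318, minus strand): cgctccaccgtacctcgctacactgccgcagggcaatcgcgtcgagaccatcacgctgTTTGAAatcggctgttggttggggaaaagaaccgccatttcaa
lin-54 (chrIV:13240652-13240734, plus strand): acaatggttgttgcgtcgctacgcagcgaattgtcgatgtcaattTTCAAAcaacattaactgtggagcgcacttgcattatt
lin-52 (chrIII:9824658-9824743, minus strand): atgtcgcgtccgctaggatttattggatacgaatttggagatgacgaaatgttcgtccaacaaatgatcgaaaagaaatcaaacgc
dpl-1 (chrII:9169777-9169875, plus strand): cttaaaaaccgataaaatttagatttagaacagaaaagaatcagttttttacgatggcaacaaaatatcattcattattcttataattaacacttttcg

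Of the 8 genes, 5 had a thresholded summit in the promoter window, which reaches 500 bp upstream and 200 bp downstream from the outermost annotated start. These were lin-35, lin-9, lin-52, lin-53 and lin-54. Among all nuclear protein-coding genes, 327 of 19973 (1.64%) had one. By role, the pocket protein gene had a thresholded summit, as did 4 of the 5 MuvB core genes, with lin-37 the exception, and neither of the 2 genes for the E2F and DP subunits did. The nearest thresholded summits to lin-37, dpl-1 and efl-1 lay 100520, 113057 and 373344 bp from their starts. The weakest of the 5 was lin-52 with a signal of 102, and the last peak of the thresholded list had 88.6. Among the DREAM genes outside that list, the highest pooled signal in a promoter window was 27.2, at lin-37. The count of 5 rests on both replicates together. Among the 750 strongest peaks of replicate 1 the count was 4, without lin-52, where 1.59% of all genes had such a summit. Among the 750 strongest of replicate 2 it was 3, without lin-35 and lin-9, where 1.39% of all genes had one.

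**Figure D1:**
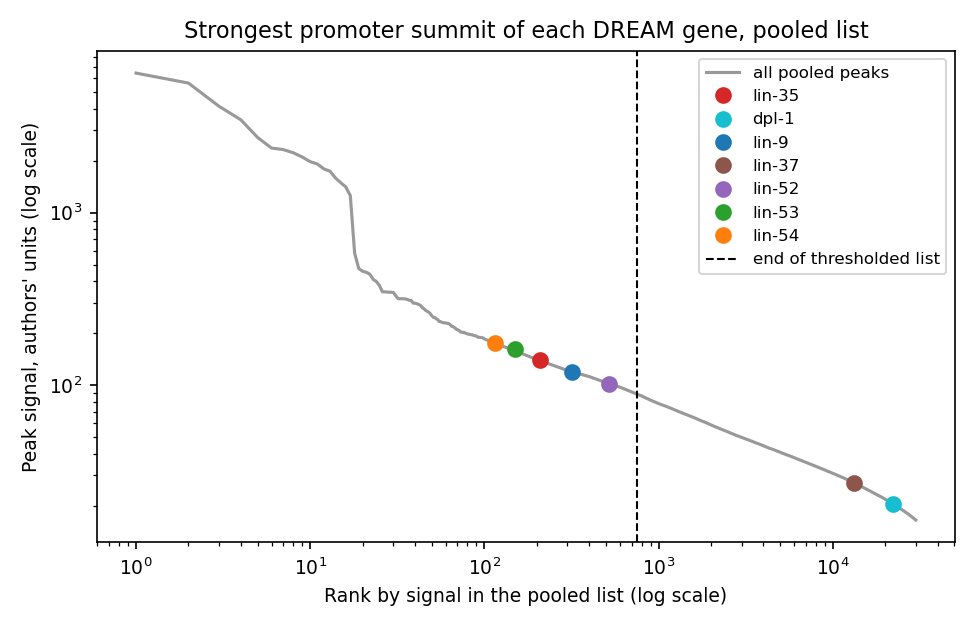
Signal (authors' units, log scale) against rank (log scale) for all peaks of the pooled list, with the strongest promoter summit of each DREAM gene as a coloured point. lin-54, lin-53, lin-35, lin-9 and lin-52 sit at ranks 115 to 517, left of the dashed line that ends the thresholded list at rank 750, while lin-37 and dpl-1 sit at ranks 13200 and 22090, and efl-1 has no point.

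In the unthresholded pooled list, 7 of the 8 genes had a promoter summit, all but efl-1, against 26.2% of all genes. The median over the 8 genes of the rank of the strongest promoter summit was 418, counting efl-1 as below the list, whereas the median gene of the genome had no promoter summit in that list. The list of replicate 1 gave 7 genes, all but dpl-1, against 26.0% of all genes. The list of replicate 2 also gave 7, all but efl-1, against 21.6% of all genes. A promoter summit in both replicates with the 2 summits within 200 bp was found at 6 genes, all but efl-1 and dpl-1, against 11.4% of all genes.

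The gene of the pocket protein, lin-35 (WBGene00003020), lies on the plus strand of chromosome I from 5807709 to 5815637. Its thresholded peak ran from 5807235 to 5807694 with the summit at 5807465, 244 bp upstream of the start, and had a signal of 139 and rank 210. In replicate 1 the summit had a signal of 101, which was 5.84 times the median of that list, and rank 160. In replicate 2 it had a signal of 36.6, which was 2.56 times the list median, and rank 840. The summits of the 2 replicates lay 60 bp apart. The lin-35 peak was thus much higher in the order of replicate 1 than in that of replicate 2. Replicate 1 held a weak additional summit 43 bp upstream of the start, at rank 24548.

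The genes of the E2F and DP subunits had weak promoter summits. dpl-1 (WBGene00001061, chromosome II, 9169910 to 9172565, plus strand) had its pooled summit 85 bp upstream with a signal of 20.6, which was 0.807 times the list median, at rank 22090. The list of replicate 2 held a summit 268 bp upstream at rank 20671, and that of replicate 1 held none in the window. These are positions from the weaker end of each list, which by its label holds background as well as peaks. efl-1 (WBGene00001161, chromosome V, 16958590 to 16965675, minus strand) had a promoter summit in replicate 1 alone, 150 bp upstream, with a signal of 20.3 and rank 10835. The deposited −log10 q-value was 2.47 at each of the 5 thresholded genes, and 0.0887 at dpl-1. The value of 2.47 is the highest of the pooled list, but it is the same at lin-54 (rank 115) and lin-52 (rank 517), so it does not order these peaks.

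Within the MuvB core, the highest signal in a promoter window was in that of the gene for the DNA-binding subunit LIN-54, at a summit that lies nearer to the start of rpl-12. lin-54 (WBGene00003037, chromosome IV, 13241044 to 13243401, plus strand) had its thresholded peak from 13240604 to 13240783, with the summit at 13240684 and a signal of 175, rank 115. This peak is 180 bp wide, one of 113 of the 750 thresholded peaks that are narrower than the usual 460 bp. In replicate 1 its summit had a signal of 113, which was 6.48 times the list median, and rank 124. In replicate 2 it had a signal of 59.6, which was 4.17 times the list median, and rank 178. The replicates placed the summit 40 bp apart, so lin-54 was high in both.

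lin-53 (WBGene00003036, chromosome I, 9618196 to 9619760, minus strand) encodes a histone-binding protein of the RbAp48 type that also serves in the NuRD complex. Its thresholded peak ran from 9619725 to 9620184, with the summit 195 bp upstream, a signal of 161 and rank 150. The ranks were 155 in replicate 1 and 204 in replicate 2, with signals of 103 and 56.4, or 5.91 and 3.95 times the list medians. The 2 summits were 20 bp apart, the closest agreement among the 6 genes with a promoter summit shared by the replicates. The gene that follows lin-53 on the same strand 88 bp downstream is its relative rba-1, whose own window held an unthresholded pooled summit of signal 32.9 at rank 8561. Replicate 1 had an rba-1 promoter summit at the same position with rank 7008, and replicate 2 had none.

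lin-9 (WBGene00002998, chromosome III, 8900237 to 8904131, minus strand) encodes a MuvB subunit conserved from worms to mammals. Its thresholded peak, from 8904038 to 8904497 with the summit 137 bp upstream, had a signal of 119 and rank 319. The signal was 87.7 in replicate 1, which was 5.05 times the list median, at rank 231. It was 37.1 in replicate 2, which was 2.60 times the list median, at rank 808. As at lin-35, the order of replicate 1 placed this peak higher, and the summits were 44 bp apart.

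lin-52 (WBGene00003035, chromosome III, 9824083 to 9824750, minus strand) is the shortest of the genes at 668 bp and encodes a small subunit that in human cells links the pocket protein to the core. Its thresholded peak, from 9824478 to 9824937, had its summit at 9824708, which is 42 bp inside the gene and in the coding exon shown above. The signal was 102, rank 517. Replicate 2 also placed the summit in the coding exon, 58 bp downstream of the start, at rank 415 and 3.21 times the list median. Replicate 1 placed it 44 bp upstream of the start, at rank 877 and 3.17 times the list median. The replicate summits were 102 bp apart and lay on opposite sides of the start. Of the 5 genes, lin-52 alone stood nearer the top of the order in replicate 2 than in replicate 1.

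lin-37 (WBGene00003022, chromosome III, 7070890 to 7072552, minus strand) was the MuvB gene without a thresholded peak. Its pooled summit lay 247 bp upstream with a signal of 27.2, which was 1.07 times the list median, and rank 13200. The deposited −log10 q-value there was 0.209. The gene begins 60 bp after the end of ZK418.5 on the same strand, and the pooled summit lies inside ZK418.5. The summits of the replicates, at ranks 8338 and 11015, were 194 bp apart, so lin-37 counts as shared at a distance of 200 bp but not at 100 bp.

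**Figure D2:**
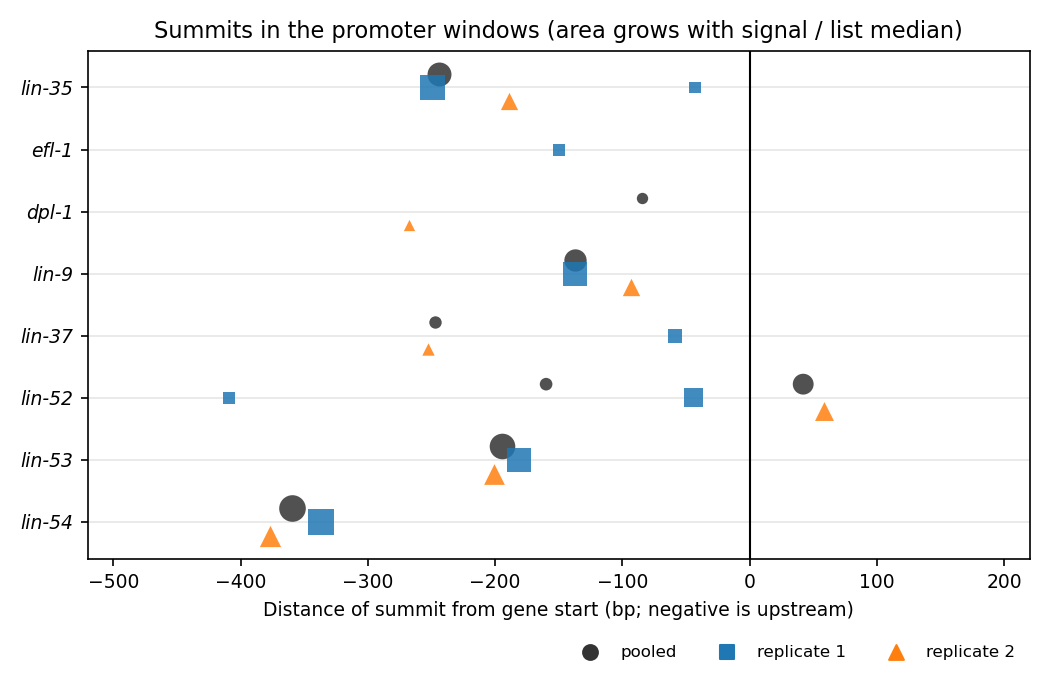
Position of every promoter-window summit relative to the start of each DREAM gene (x axis, bp, negative upstream), by list (marker), with marker area growing with the signal over the list median. lin-53, lin-54, lin-9 and lin-35 have large markers upstream of the start that lie within 60 bp of each other between replicates, lin-52 straddles its start, and efl-1, dpl-1 and lin-37 have small markers.

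Of the 5 thresholded genes, 2 (lin-53 and lin-54) were among the 750 strongest in both replicates. Of the 323 genes with a thresholded promoter summit and a summit in both replicate lists, 177 (54.8%) were. The larger of the 2 replicate ranks was 5.25 times the smaller at lin-35, 3.50 times at lin-9, 2.11 times at lin-52, 1.44 times at lin-54 and 1.32 times at lin-53. Over the 323 genes the median ratio was 1.77, with an interquartile range of 1.29 to 3.39. The ratios of lin-35 and lin-9 were above that range, and those of lin-52, lin-53 and lin-54 were within it.

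**Figure D3:**
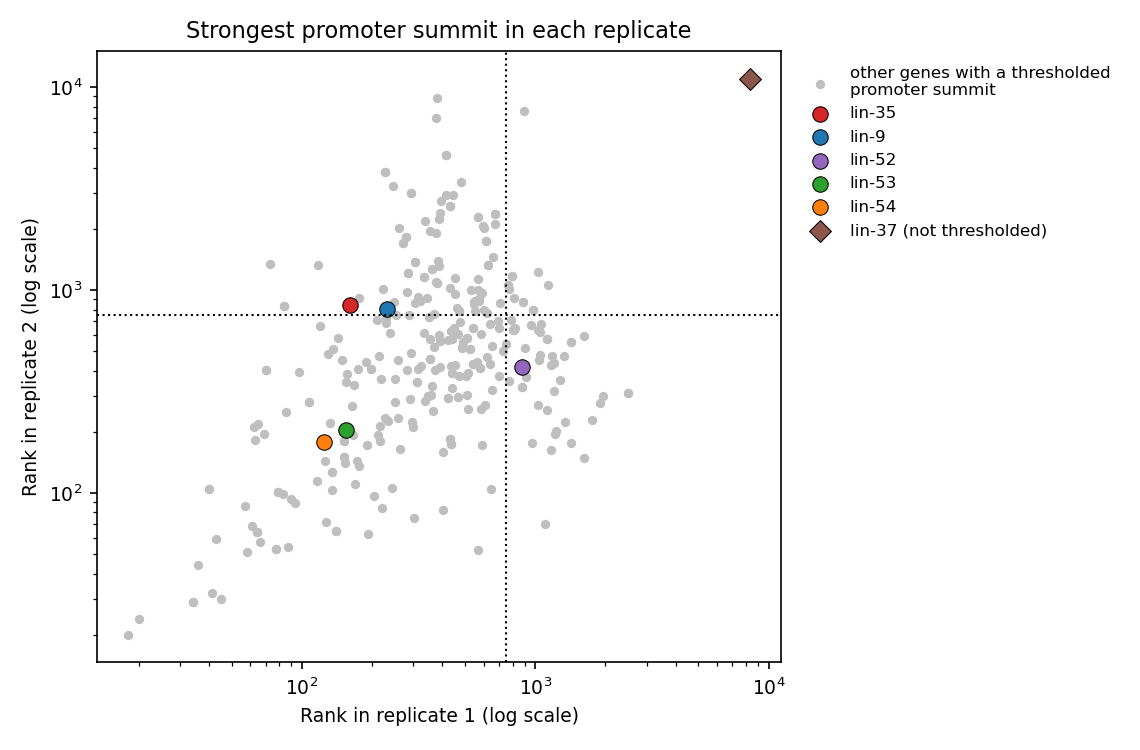
Rank of the strongest promoter summit in replicate 1 (x axis) and replicate 2 (y axis), both on log scales, for the DREAM genes (coloured) and the other genes with a thresholded promoter summit (grey), with dotted lines at rank 750. lin-53 and lin-54 lie below both lines, lin-35 (160 and 840) and lin-9 (231 and 808) lie above the line of replicate 2, lin-52 (877 and 415) lies right of the line of replicate 1, and lin-37 lies far outside both.

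Of the 5 summits, 3 lay between divergent genes and so within the promoter window of another gene as well. Of all 268 thresholded promoter summits on the nuclear chromosomes, 62 (23.1%) lay in more than 1 window. The summit of lin-54 was 360 bp from the lin-54 start and 33 bp from that of rpl-12, a gene for a large-subunit ribosomal protein, and in every list it was nearer to rpl-12. The summit of lin-35 was 244 bp from the lin-35 start and 174 bp from that of vps-51, which encodes a subunit of a vesicle tethering complex. In replicate 2 the order was reversed, with 189 bp to lin-35 and 229 bp to vps-51. The summit of lin-53 was 195 bp from its own start and 272 bp from that of nra-2, a gene for an endoplasmic reticulum protein that acts on acetylcholine receptors, and lin-53 was the nearer in all 3 lists. The lin-9 and lin-52 summits lay in no other protein-coding promoter window. For lin-54, lin-35 and lin-53 a peak at the gene therefore cannot be told apart from a peak at its neighbour. Counting each summit for the nearest start alone left 3 of the 5 genes, lin-9, lin-52 and lin-53. No tRNA, snoRNA or snRNA gene lay near these summits. The closest was the snoRNA gene JC8.15, 1607 bp from the lin-54 summit.

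In signal, the DREAM summits were spread over the order of thresholded promoter summits. Among the 268, lin-54 stood at place 31, lin-53 at 46, lin-35 at 64, lin-9 at 107 and lin-52 at 187. The median signal of the 268 was 113 with an interquartile range of 100.5 to 137, so lin-54, lin-53 and lin-35 exceeded the upper quartile, and lin-9 and lin-52 fell within the range. The promoter summit next above lin-54 in the order was that of pcn-1, which encodes the replication clamp PCNA (signal 177), and next below it was that of C07H6.2 and cux-7 (175). lin-53 stood between rpi-2 (162) and the shared summit of Y75B8A.23 and tim-1 (159), the last of which encodes the Timeless protein of chromosome cohesion. lin-35 stood between Y18D10A.4 (139) and the transthyretin-like gene ttr-15 (139). lin-9 stood between the shared summit of mcrs-1 and atp-1, an ATP synthase gene (122), and ufd-3, a gene of the CDC-48 pathway (119). lin-52 stood between K10D2.5 (102) and rrp-8, a gene of ribosomal RNA processing (102). The median distance of the 5 summits from the start was 195 bp upstream, and over all 327 genes with a thresholded promoter summit it was 193 bp upstream.

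Summits within the genes themselves were described next. Between the start and the end of the gene, 6 of the 8 had a pooled summit, all but lin-53 and lin-54, against 44.3% of all genes. The DREAM genes range from 668 bp (lin-52) to 7929 bp (lin-35), the median protein-coding gene is 2027 bp long, and a longer gene offers more room for a summit. Apart from that of lin-52, no gene-body summit was in the thresholded list. The strongest was in the 3′ UTR of lin-35 at 5815518, 119 bp before the end of the gene, with a pooled signal of 46.2 and rank 3628. Both replicates had a summit there, at 5815518 with rank 16710 in replicate 1 and at 5815519 with rank 2206 in replicate 2. The position was thus the same to 1 bp while the rank differed widely, in the opposite direction to the lin-35 promoter peak.

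A second lin-35 intron summit, at 5810078 with pooled rank 15359, lies 76 bp upstream of C32F10.4, a gene nested within lin-35 on the other strand. It had rank 2850 in replicate 2 and no counterpart in replicate 1. In efl-1 the strongest pooled summit was in an intron 498 bp before the gene's end, with a signal of 37.5 and rank 6180, and the replicates had summits near it at 16959130 (replicate 1, rank 6674) and 16959049 (replicate 2, rank 18445). The strongest efl-1 summit of replicate 2 was another, in the 3′ UTR at 16958715 (rank 4505), and its pooled counterpart at 16958758 had rank 24551. In lin-9 an intron summit at 8900806 had a pooled signal of 34.4 and rank 7686, with a counterpart in replicate 1 at rank 5945 and none in replicate 2. In dpl-1 the strongest pooled summit, in an intron 864 bp downstream of the start, had a signal of 31.3 and rank 9599, above the dpl-1 promoter summit. The gene-body summit of replicate 1 was in a coding exon at 9170986 (rank 5970), nearer to another pooled summit at 9170978 (rank 14246). Replicate 2 had no summit inside dpl-1. The whole of dpl-1 lies within T23G7.2 on the other strand, so its summits are equally summits of that gene.

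The bases around the summits were searched on both strands, within 50 bp of the summit, for 3 kinds of word. The CHR words were TTTGAA and the variant with C in place of the third T, TTCGAA. The E2F words were TT, then 2 letters that are each G or C, then CGC. GAGAGA, the repeat known from GAGA factor sites in flies, was the last. No word of 1 kind contains a word of another. CHR words were present at 3 of the 5 thresholded DREAM summits, those of lin-9, lin-53 and lin-54, where the word began 13 bp to the left, 15 bp to the left and 13 bp to the right of the summit on the plus strand. Of the 268 thresholded promoter summits 26.5% held one, as did 34.3% of all promoters in a window of 101 bp centred 195 bp upstream of the start. A word this short is common in promoters, and 3 of 5 genes is too few to read a difference from. E2F words were present at 0 of the 5, against 8.58% of thresholded promoter summits and 3.58% of all promoters. Within 100 bp of the summit, 3 of the 5 held an E2F word, again lin-9, lin-53 and lin-54, against 15.7% of thresholded promoter summits and 6.96% of all promoters. CHR words stayed at 3 of the 5 in that longer stretch, against 47.0% and 56.4%. Here too, 5 summits are too few to read a difference from. GAGAGA was present within 50 bp at the lin-35 summit alone, against 18.7% and 7.63%, and within 100 bp at 2 of the 5, against 27.6% and 14.4%. A match describes letters and not a bound site.

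Base composition differed among the genes. The share of G and C within 50 bp of the summit was 56.4% at lin-9, 54.5% at lin-53, 43.6% at lin-54, 37.6% at lin-52 and 30.7% at lin-35, against a median of 47.5% over the thresholded promoter summits and 33.7% over all promoters. The weak summits of lin-37 and dpl-1 had 26.7% and 23.8%. lin-9 and lin-53 thus lay above both medians, lin-54 and lin-52 between them and lin-35 below both.

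Genes related to DREAM by protein family, by genetics or by function were counted in the same way, from 9 lists with 71 genes in all. Of the 71 genes, 3 had a thresholded promoter summit, a share above the 1.64% of all genes that was not tested. These were pcn-1, epc-1 and mrg-1. pcn-1, from the list of DNA replication genes (1 of 18), had a signal of 177 and rank 113, with ranks of 125 and 144 in replicates 1 and 2. epc-1, a synMuv C gene (1 of 4) that encodes an enhancer of Polycomb protein of the TIP60 complex, had a signal of 91.1 and ranks of 1029 and 638. mrg-1, a chromodomain gene from the list of synMuv suppressors (1 of 5), had a signal of 88.8 and ranks of 2507 and 310, and it shares its summit with spcs-2, a signal peptidase gene. Among the 750 strongest peaks of replicate 1 only pcn-1 of the 3 was present, while all 3 were present among those of replicate 2.

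The genes of the following lists are to be read beside shares of 1.64% thresholded and 26.2% pooled over all genes. The other synMuv B genes had no thresholded summit (0 of 8). In the pooled list 3 of the 8 had one, lin-15B (signal 37.6, rank 6135), tam-1 (28.0) and lin-36 (19.3), which is 37.5%. The NuRD and MEC genes had 0 of 6 thresholded and 1 of 6 pooled, mep-1, a zinc finger gene (62.5, rank 1732). The synMuv A genes had 0 of 4 and 1 of 4, lin-15A (31.1). The relatives of the E2F, DP and LIN-53 proteins had 0 of 3 and 1 of 3, rba-1. The synMuv C genes had a further pooled summit at mys-1, a TIP60 acetyltransferase gene (54.0, rank 2456).

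Cell cycle genes, a group that DREAM is known to control, were seen mainly in the pooled list. Of 18 DNA replication genes, 14 (77.8%) had a pooled promoter summit and 7 (38.9%) had summits of both replicates within 200 bp, against 26.2% and 11.4% of all genes. After pcn-1 the strongest was cdc-6, a gene of replication licensing (66.3, rank 1511, shared with acin-1), which had a promoter summit in replicate 1 and none in replicate 2. The helicase genes mcm-5 (58.1, rank 2067) and mcm-4 (55.5, rank 2284) followed, each with a promoter summit in both replicate lists. Of 20 genes for cell cycle kinases, cyclins and inhibitors, 0 had a thresholded and 9 (45.0%) a pooled summit. The strongest was at cdk-4, the G1 kinase gene (44.1, rank 4092, shared with F18H3.1). It lay 302 bp from the cdk-4 start and 450 bp from that of F18H3.1. Summits of both replicates within 200 bp were found at 3 of the 20 (15.0%), near the 11.4% of all genes. The 3 P granule genes had 0 thresholded and 2 pooled summits. The stronger, at pgl-3 (62.8, rank 1709), lay 495 bp upstream, close to the limit of the window. The weaker, at pgl-1 (28.9, rank 11603), was 111 bp from the pgl-1 start and 79 bp from that of him-3. Summits of both replicates within 200 bp were found at pgl-1 and not at pgl-3. The median gene had a pooled summit at rank 12666.5 among the replication genes and none among the kinases and cyclins. No list was tested.

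**Figure D4:**
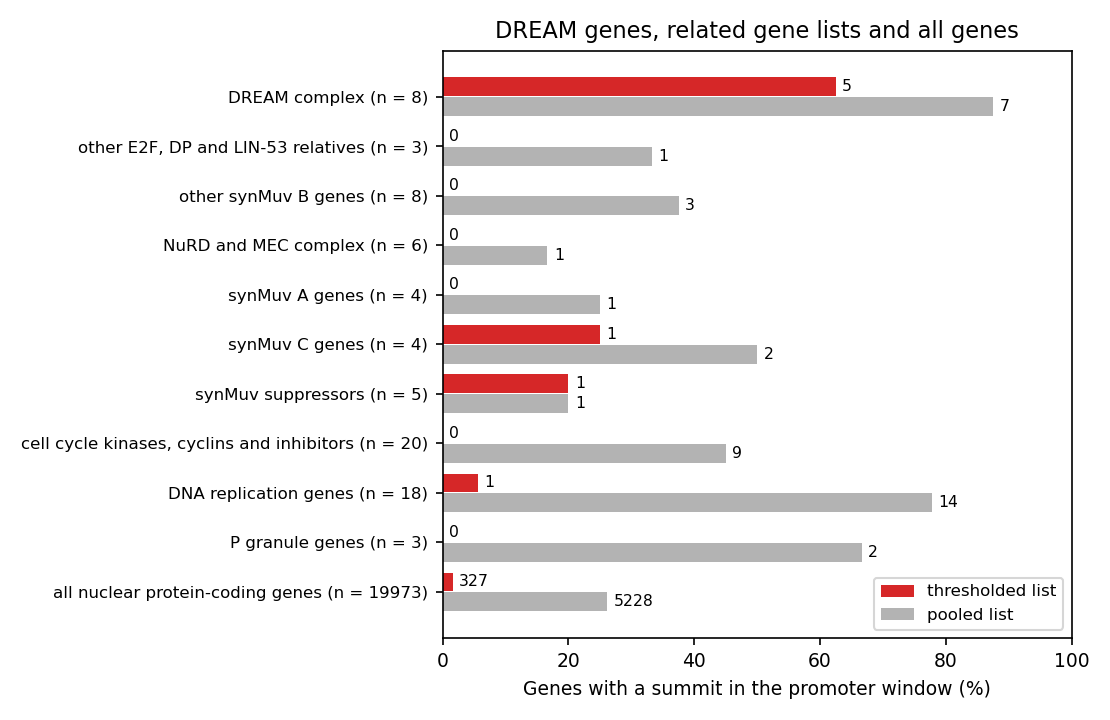
Share of genes (x axis, percent) with a promoter-window summit in the thresholded list (red) and the pooled list (grey) for the DREAM genes at the top, the 9 related lists and all nuclear protein-coding genes at the bottom, with the number of genes beside each bar. The thresholded share is 62.5% for the DREAM genes and 1.64% for all genes, and the pooled share of the DNA replication genes is 77.8% against 26.2% for all genes.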

How the data were processed

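Peak lists in the ce11 build, per the deposited description of the files, were used for each of the 2 replicates, for both together and as a thresholded list. The signal in each list was made and deposited by the authors on a scale set within the list. The −log10 q-value of each peak is also the authors' deposited value. Neither the aligner nor the peak caller is named (not given in the sources used here). Files beyond the replicate alignments are listed in that description as sources of each list. The lists in the ce10 build were not used.

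Summits were the peak start plus the deposited offset, printed 1-based. They were ranked by signal and matched to the Ensembl release 115 annotation of WBcel235, whose chromosomes held all peaks. Windows, counts and words were computed with Python 3.11.15, pandas 2.3.3 and numpy 2.4.6, and the window assignment was tested on simulated data. Shares over all 19973 nuclear protein-coding genes stand beside the main counts of each list, and no significance test was made. The members and lists were chosen with earlier results of these data known. The text names the 8 genes, those sharing their summits, the members of each list with a thresholded summit (in other lists the strongest pooled one) and the neighbours in signal order. Further genes of these lists were named after their values were seen. Alternatives were other promoter windows, other starts, the nearest gene alone, stricter and longer lists, each replicate alone and other distances.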

Additional observations from a re-analysis of the deposited data

How the results depend on the processing

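Of the 5 DREAM genes with a thresholded promoter summit, 3 (lin-9, lin-52 and lin-53) were left with a window of 200 bp upstream to 100 bp downstream, because the lin-35 and lin-54 summits lie farther upstream, and the same 3 with the nearest gene only. The range was 3 to 4 when 1 replicate was left out, and 4 when the weaker peaks of the thresholded list were left out. It stayed at 5 with a window reaching 1000 bp upstream, any annotated transcript start or the 1500 strongest pooled peaks. The pooled count of 7 was 4 with the narrower window, 5 with the nearest gene only and 6 when the weaker pooled peaks were left out. The list of each replicate alone, already described above, also gave 7, and that of replicate 1 held efl-1 in place of dpl-1. The count of 6 genes with summits in both replicates became 3 with the narrower window, 3 with summits within 50 bp and 4 within 100 bp. The 3 of the narrower window were lin-35, lin-9 and lin-52. There lin-53 was lost because its replicate 2 summit lay 201 bp upstream, just past the limit. In that window lin-35 was kept through its weak replicate 1 summit 43 bp upstream (rank 24548). Within 100 bp of the summit E2F words were found at 3 genes in place of 0, against 15.7% of thresholded promoter summits and 6.96% of all promoters. GAGAGA was found at 2 in place of 1, against 27.6% and 14.4%, and CHR words stayed at 3, against 47.0% and 56.4%. These changes were not tested. The 3 related genes with a thresholded summit were 1 with the narrower window and 1 to 3 without 1 of the replicates. No paired analysis was possible because the 2 replicates form 1 group. The lists hold no counts, so depth sets an unknown limit on the weak summits of efl-1, dpl-1 and lin-37.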
